A study of Zea mays with 24 samples.

Results

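The basic leucine zipper (bZIP) genes of maize were described in leaves of the ZmPMP3g-overexpressing line Y7-1 and of its wild type Y478. Members were the genes of the deposited table whose name or transcription factor family gives them as bZIP and whose FPKM (fragments scaled by gene length and library size) reached 0.5 in 3 or more of the 24 sample columns. Of 46430 genes in the table, 135 carried such a name or family, 4 ABI5-like genes among them were left out by the rule, 37 more were below the FPKM minimum, and 94 remained. Of these 94, 83 were bZIP genes by name and 11 by transcription factor family alone. Of the 83, 64 also carried the bZIP family, while 19 were bZIP by name alone. The rule used neither line nor treatment, but a low gene could pass it through 1 line or treatment alone. At its edge, bZIP62 (Zm00001d031697) entered with 3 libraries at 0.5 FPKM or more and a highest value of 0.954 FPKM, while bZIP78, bZIP77 and bZIP15 stayed out with 2 such libraries and highest values of 0.610, 0.765 and 0.998 FPKM. Of the 37, 8 were at 0 in all 24 libraries, among them opaque endosperm2, a regulator of storage protein genes in the endosperm.

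The 24 libraries came from 24 plants, 3 in each of 8 groups, from the second fully expanded leaf. Y7-1 is a T4-generation line of the inbred Ye478 that carries ZmPMP3g behind a triple CaMV35S promoter and is 1 transgenic line, so a difference between the lines cannot be told apart from one particular to that insertion. Y478 is Ye478 without the construct. Both lines were grown under moderate drought-exogenous ABA, moderate drought, control-exogenous ABA and control, where moderate drought is a pot mix moisture of 40% to 50%, control is 70%, and exogenous ABA is a foliar spray of 15 mg/L abscisic acid in place of tap water. Leaves were taken 9 d after the spraying.

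bZIP proteins bind DNA as dimers through a basic region followed by a leucine zipper, mostly at sites with an ACGT core. In the ABA pathway, receptors of the PYR/PYL family bind the hormone and inhibit PP2C phosphatases, which frees SnRK2 kinases to phosphorylate the ABF or AREB group of bZIP factors, and these bind ABA-responsive elements of stress genes. Other groups serve other roles, known mostly from Arabidopsis: TGA factors act with NPR1 in defence, HY5 promotes light-dependent development, G-box binding factors bind CACGTG sites, bZIP17 and bZIP60 answer stress in the endoplasmic reticulum, and bZIP9 or bZIP25 pair with the small bZIP11 or bZIP53 proteins in sugar and amino acid metabolism. Numbers of the maize genes (bZIP1 to bZIP127) are those of the table and do not match the Arabidopsis numbers, and a type given below is the description in the table. That description went against the name for bZIP105 (glucose-6-phosphate dehydrogenase) and bZIP34 (an oxidoreductase).

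Reads assigned to genes ranged from 15762667 to 18428177 per library (median 17248473), of which 26164 to 54842 lay in the 94 members (median 32118.5). For a gene 1000 bases long, each read adds 0.0502 to 0.0734 FPKM. The library labelled as Y7-1 moderate drought replicate 3 stood apart. On the first principal component of all genes it had a score of -59.5, against 63.5 to 98.5 in the other Y7-1 libraries and -86.4 to -46.2 in Y478, and on that of the 94 members it had -2.73, against 1.74 to 8.75 and -7.03 to -1.04. The ZmPMP3g homolog (Zm00001d024778) does not check the labels, since whether transgene reads count there is unknown, and it had 3435 FPKM in that library, 572 and 684 FPKM in the other Y7-1 moderate drought libraries and 2212 to 3233 FPKM in Y478 moderate drought. In each of the other treatments the values of this homolog overlapped between the lines, so a higher level of it in Y7-1 was not shown. Since the library labelled as Y7-1 moderate drought replicate 3 stood apart, counts of calls in the comparisons that use it are also given without it. In Y7-1 control-exogenous ABA replicate 3, 7 members were at least 4-fold from the mean of the other replicates of that group, against 0 to 3 members in each of the other 23 libraries.

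Members spanned the range of expression of other genes. Their median level was 4.87 FPKM, against 4.96 FPKM over all 23978 genes tested, and 62 of the 94 reached 0.5 FPKM in all 24 libraries. Summed FPKM of the members was 1231 ± 68.7 in Y7-1 moderate drought-exogenous ABA, against 2079 ± 261 in Y478 of the same treatment (SD, n = 3 each). Under moderate drought the sums were 1298 ± 118 in Y7-1 (1190 and 1279 in the replicates other than the library labelled replicate 3, and 1424 in that library) and 1680 ± 366 in Y478, under control-exogenous ABA 1324 ± 112 in Y7-1 and 1858 ± 204 in Y478, and under control 1339 ± 67.1 in Y7-1 and 1436 ± 135 in Y478. These sums rest on few genes, since the 6 members of highest level held 49.5% of the FPKM of all members.

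The member of highest level was octopine synthase binding factor1 (Zm00001d030617), which binds ocs elements, with 99.9 to 292 FPKM over the 24 libraries and a mean of 207.5 FPKM. The HY5 gene bZIP61 (Zm00001d015743) followed with a mean of 179 FPKM and values from 8.89 to 358 FPKM, its lowest in Y7-1 control-exogenous ABA replicate 3. Low temperature-induced protein15 (Zm00001d035440), a cold-induced bZIP gene of maize, had 38 to 254 FPKM. The next in order were bZIP17 (19.6 to 431 FPKM), bZIP9 (33.0 to 196 FPKM) and bZIP21 (9.76 to 189 FPKM), whose ranges overlap one another. At the other end, 21 members had a mean below 1 FPKM.

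The comparisons ask how bZIP expression differs with drought, with the ABA spray and with ZmPMP3g overexpression. Expression was compared as log2(FPKM + 0.5) with limma, with 8 group means in 1 fit of 24 libraries and Benjamini-Hochberg adjustment over the 23978 genes tested. A gene is called, and said to have risen or fallen, at an adjusted p under 0.05 with a log2 fold change of at least 1 in size. The plants were separate, and p-values measure the spread between plants of 1 experiment. In bulk leaves, fewer cells of a type and less RNA per cell cannot be told apart. Calls were repeated in 24 fits that left out 1 library each, and a call is said to hold in the number of these fits that kept it. With the fit limited to the pair compared, which leaves fewer libraries to set the spread, 41 of the 78 pairwise calls were kept, and so were 27 of the 37 pairwise calls that held in 24 of 24 fits. Of the 94 members, 35 (37.2%, against 26.7% of all genes tested) were called between the lines in at least 1 treatment, 17 (18.1%, against 13% of all genes) with drought in at least 1 pair of groups, and 11 (11.7%, against 6.66%) in both. With the 3 called in an average alone (bZIP42, bZIP transcription factor1 and Zm00001d005143), 44 (46.8%, against 35.5% of all genes) were called in at least 1 comparison and 50 in none.

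**Figure D1:**
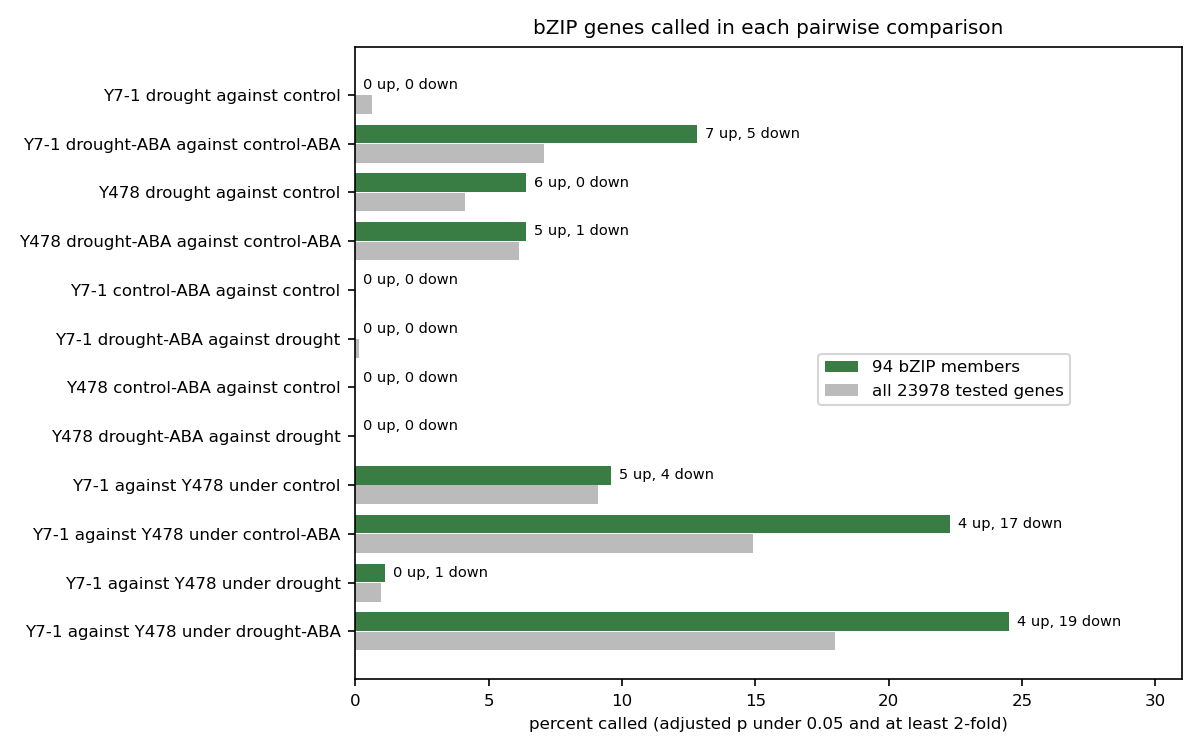
Percent of the 94 bZIP members (green) and of all 23978 genes tested (grey) called in each of 12 pairwise comparisons, with the number of members higher and lower. Members were called most often between the lines under moderate drought-exogenous ABA (24.5%, against 18% of all genes) and in none of the comparisons of the ABA spray.

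A small set of bZIP genes rose under drought, led by a G-box binding type. In Y478, 6 members rose and 0 fell under moderate drought, 6.4% of the members against 4.11% of all genes tested (2.4% of all genes rose and 1.71% fell). Averaged over both lines and both sprays, 7 members rose and 1 fell, 8.5% of the members against 5.46% of all genes (3.55% rose, 1.91% fell), and without the library labelled as Y7-1 moderate drought replicate 3 the counts were 6 and 1. With ABA, 5 rose and 1 fell in Y478, 6.4% against 6.14% of all genes (4.43% rose, 1.71% fell). In Y7-1 with ABA 7 rose and 5 fell, 12.8% against 7.07% of all genes (4.47% rose, 2.6% fell). With the fit limited to the pair compared the count was 2 in place of 12 in Y7-1 with ABA, where bZIP95 and bZIP17 were kept, and 1 in place of 6 in Y478 with ABA, where bZIP23 was kept. In Y478 without ABA it was 4 in place of 6, with 0 members in common. The median log2 fold change of the 94 members was 0.16 in the average, with 60 above 0, against 0.00 over all genes. The shares of members called in Y478 lie near those of all genes.

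The member with the lowest adjusted p in the drought average was bZIP95 (Zm00001d042721, chromosome 3, 178186600 to 178189773, in the genome build of the table, which the file does not name), described as G-box binding factor 4. It had 43.7, 23.1 and 9.55 FPKM in Y478 moderate drought, against 5.81, 5.03 and 4.13 FPKM in Y478 control. With ABA it had 34.7, 16.4 and 38.4 FPKM in Y478 moderate drought, against 4.94, 4.93 and 5.40 FPKM in Y478 control. The groups did not overlap in either pair, and the droughted replicates were far more spread than the controls. The log2 fold changes were 2.01 ± 0.36 (SE, limma adjusted p = 0.00428) without ABA and 2.35 ± 0.36 (adjusted p = 0.00117) with ABA, and both calls held in 24 of 24 fits, while with the fit limited to the pair compared the adjusted p was 0.096 without ABA and 0.0517 with ABA. In Y7-1 with ABA the droughted leaves were lower than those of Y478 and still above their controls. They had 12, 9.55 and 13.6 FPKM under moderate drought-exogenous ABA, against 3.68, 3.80 and 3.91 FPKM under control-exogenous ABA (log2 fold change 1.49 ± 0.36, adjusted p = 0.0128). Without ABA, Y7-1 had 7.99, 9.20 and 10.1 FPKM under moderate drought, against 5.09, 4.62 and 5.40 FPKM under control. The highest of these droughted values, in the library labelled replicate 3, lay above the lowest of Y478 moderate drought. Without ABA, neither this drought change nor the line difference under drought was called. Over both lines all 12 droughted libraries (7.99 to 43.7 FPKM) lay above all 12 controls (3.68 to 5.81 FPKM), at an average log2 fold change of 1.66 ± 0.18 (adjusted p = 4.17e-06).

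A second G-box type, bZIP45 (Zm00001d030577, described as light-inducible protein CPRF-2, a name from parsley), had 11.2, 5.45 and 4.28 FPKM in Y478 moderate drought, against 1.81, 2.13 and 1.68 FPKM in Y478 control. With ABA it had 7.64, 5.23 and 16.4 FPKM in Y478 moderate drought, against 1.11, 1.68 and 1.95 FPKM in Y478 control. Neither pair overlapped, and 1 droughted replicate in each was well above the other replicates. The log2 fold change was 2.17 ± 0.38 with ABA (limma adjusted p = 0.00231, held in 24 of 24 fits) and 1.55 ± 0.38 without ABA (adjusted p = 0.0232). With the fit limited to the pair compared, the limma adjusted p was 0.0678 with ABA and 0.0723 without ABA. The call without ABA was lost without Y478 control replicate 1 (adjusted p = 0.0765), 2 (0.0673) or 3 (0.0686) and without Y478 moderate drought replicate 1 (0.151) or 2 (0.051). In Y7-1 the values overlapped, with 4.85, 10.1 and 5.13 FPKM under moderate drought, against 3.06, 5.14 and 2.99 FPKM under control.

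Of the 5 members of the ABF type, 1 was called with drought. It was bZIP68 (Zm00001d050018, described as ABSCISIC ACID-INSENSITIVE 5-like protein 5), an ABF type factor of the group that SnRK2 kinases phosphorylate. In Y478 it had 4.93, 3.54 and 2.42 FPKM under moderate drought, against 1.2, 0.933 and 0.982 FPKM under control. In Y7-1 with ABA it had 1.82, 2.13 and 3.43 FPKM under moderate drought, against 0.718, 0.547 and 1.17 FPKM under control. In each pair the groups did not overlap, though all values were low. The average drought log2 fold change was 1.17 ± 0.15 (limma adjusted p = 2.6e-05) and held in 24 of 24 fits. The pairwise call in Y478 without ABA (1.38 ± 0.31, adjusted p = 0.014) was lost without Y478 control replicate 2 (adjusted p = 0.0648) and without Y478 moderate drought replicate 1 (0.0965).

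In Y478 with ABA, both genes described as VIP1, after an Arabidopsis protein that binds the VirE2 protein of Agrobacterium, rose under drought. bZIP23 (Zm00001d004857) had 10.7, 8.26 and 9.98 FPKM under moderate drought-exogenous ABA, against 3.37, 4.33 and 3.71 FPKM under control-exogenous ABA (log2 fold change 1.24 ± 0.26, limma adjusted p = 0.00589). bZIP110 (Zm00001d053162) had 20.4, 13.0 and 15.8 FPKM under moderate drought-exogenous ABA, against 5.20, 8.20 and 7.43 FPKM under control-exogenous ABA (1.18 ± 0.24, adjusted p = 0.00499). Neither gene overlapped between these groups, and both calls held in 24 of 24 fits. With the fit limited to the pair compared, the limma adjusted p was 0.0482 for bZIP23 and 0.0661 for bZIP110. None of the 7 members of the VIP1 or RF2 type was called in the drought average, where 6 lay above 0 and the median was 0.54.

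The drought calls in Y478 without ABA depended on single libraries. Besides bZIP95, bZIP45 and bZIP68, the 6 were bZIP17, bZIP27 and bZIP36, and in all 6 the moderate drought replicate 1 was the highest of its group and replicate 3 the lowest, an order that 38.3% of the members and 23.2% of all genes tested shared. The count was 1 without moderate drought replicate 1, 2 without replicate 2 and 11 without replicate 3, and it was 3, 1 and 3 without control replicates 1, 2 and 3. bZIP36 (Zm00001d015664) had 48 reads in Y478 moderate drought (3.47, 0.999 and 0.439 FPKM) and 1 read in Y478 control. It stayed at 0.322 FPKM or less in Y7-1, so it is a member through droughted Y478 leaves alone. Its call was lost without Y478 control replicate 1 (adjusted p = 0.0884), 2 (0.0729) or 3 (0.0747) and without Y478 moderate drought replicate 1 (0.168) or 2 (0.0566). The call of bZIP27 (Zm00001d002143), a TGA4 type gene, held in 9 of 24 fits, with 7.20, 4.81 and 2.30 FPKM under moderate drought, against 1.30, 0.913 and 1.87 FPKM under control (log2 fold change 1.42 ± 0.41, limma adjusted p = 0.0454). Its adjusted p was 0.244 without Y478 moderate drought replicate 1 and 0.0502 to 0.182 in the other 14 fits that lost it.

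bZIP17 (Zm00001d046937, chromosome 9), described as a bZIP9 type, was called higher under drought in Y478 without ABA and lower under drought in Y7-1 with ABA. It was not called with drought in Y478 with ABA or in Y7-1 without ABA. In Y478 it had 431, 165 and 43.0 FPKM under moderate drought, against 27.2, 27.0 and 61.4 FPKM under control. In Y7-1 with ABA it had 21.6, 27.1 and 22.8 FPKM under moderate drought, against 92.2, 112 and 118 FPKM under control. The Y478 groups overlapped, through a low droughted and a high control replicate, and the Y7-1 groups did not. The log2 fold changes were 2.02 ± 0.58 in Y478 (limma adjusted p = 0.0454, held in 7 of 24 fits) and -2.15 ± 0.58 in Y7-1 (adjusted p = 0.0217, held in 20). In Y478 the adjusted p was 0.276 without moderate drought replicate 1 and 0.0505 to 0.17 in the other 16 fits that lost the call. In Y7-1 the call was lost without control-exogenous ABA replicate 2 (adjusted p = 0.0617) or moderate drought-exogenous ABA replicate 1 (0.0723), 2 (0.0585) or 3 (0.0503). The difference between the lines in the drought response was -3.82 on the log2 scale with ABA (adjusted p = 0.0820) and -2.97 without ABA (adjusted p = 0.369), so neither passed the test.

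**Figure D2:**
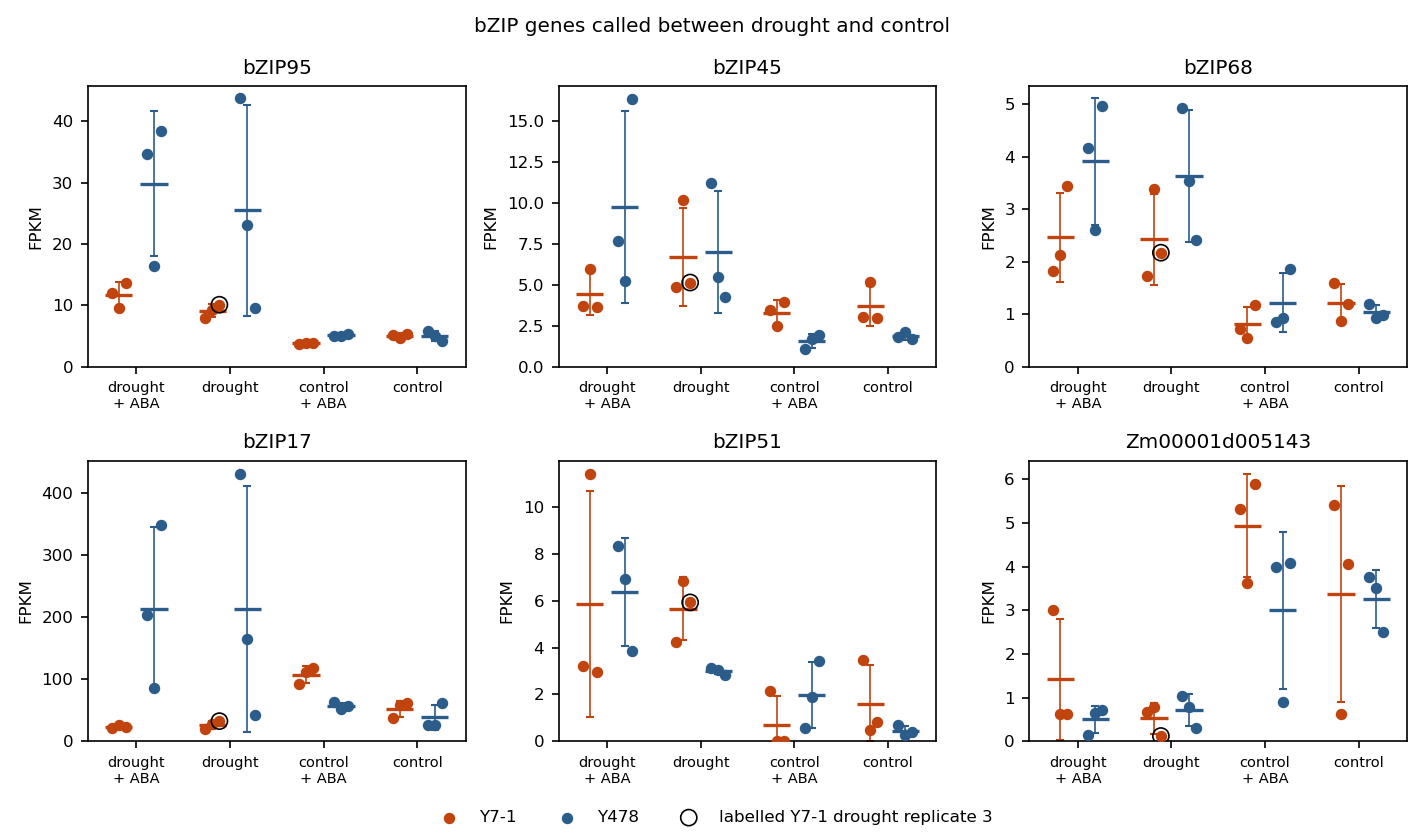
FPKM of 6 members in each library (points), with the mean (line) and SD (bars, stopped at 0; n = 3) of each group, Y7-1 in orange-red and Y478 in blue, for moderate drought-exogenous ABA, moderate drought, control-exogenous ABA and control. bZIP95 lies at 7.99 to 43.7 FPKM in the 12 droughted libraries and at 3.68 to 5.81 FPKM in the 12 controls; the circled point is the library labelled as Y7-1 moderate drought replicate 3.

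In Y7-1 without ABA no member was called with drought by limma, against 0.617% of all genes, while 5 members (6.95% of all genes) passed an unadjusted p under 0.05 with the minimum fold, and limma-voom called 0. The lowest adjusted p was 0.0728, for low temperature-induced protein15, with 70.3, 66.9 and 38 FPKM under moderate drought, against 160, 210 and 143 FPKM under control (log2 fold change -1.58). Its groups did not overlap, and the lowest value was that of the library labelled replicate 3. The count stayed 0 without that library, and was 3 without Y7-1 moderate drought replicate 1, 2 without Y7-1 control-exogenous ABA replicate 3 and 1 without Y7-1 control replicate 2.

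In Y7-1 with ABA, 12 members were called with drought. The member with the highest level among the 7 that rose was bZIP21 (Zm00001d044546, described as CPRF7, a G-box type), with 126, 85.0 and 40.2 FPKM under moderate drought-exogenous ABA, against 14.4, 12.6 and 9.76 FPKM under control-exogenous ABA. All 3 droughted values were above all 3 controls, and the log2 fold change of 2.59 ± 0.52 (limma adjusted p = 0.004) held in 24 of 24 fits. With the fit limited to the pair compared, the limma adjusted p of bZIP21 was 0.0613. bZIP51 (Zm00001d018729) had 3.19, 11.4 and 2.97 FPKM under moderate drought-exogenous ABA, against 2.15, 0 and 0 FPKM under control-exogenous ABA (2.62 ± 0.63, adjusted p = 0.0123), and its call was lost without Y7-1 control-exogenous ABA replicate 2 (adjusted p = 0.0604) or moderate drought-exogenous ABA replicate 2 (0.0795). In the average of both lines bZIP51 rose by 1.98 ± 0.31 (adjusted p = 0.000151, 24 of 24 fits), with 2.85 to 11.4 FPKM (median 4.03) in droughted and 0 to 3.49 FPKM (median 0.642) in control libraries, which overlapped. Among the 5 that fell, bZIP82 (Zm00001d005962) had 1 read in Y7-1 moderate drought-exogenous ABA and 50 reads (0.583, 4.09 and 1.63 FPKM) in Y7-1 control-exogenous ABA. No Y478 library (highest 0.148 FPKM) and no droughted Y7-1 library reached the FPKM minimum for bZIP82, so it is a member through Y7-1 controls alone. The count of 12 fell to 5 without Y7-1 moderate drought-exogenous ABA replicate 2, to 6 without replicate 3 of that group, and to 8 without Y7-1 control-exogenous ABA replicate 3.

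The member that fell in the drought average was Zm00001d005143, a gene with no name of its own in the table. It had 0.124 to 3.01 FPKM (median 0.668) in the 12 droughted libraries and 0.636 to 5.88 FPKM (median 3.87) in the 12 control libraries. The ranges overlapped through few libraries, since most controls were above 2 FPKM and most droughted values near or below 1 FPKM. The log2 fold change was -1.68 ± 0.29 (limma adjusted p = 0.000306, 24 of 24 fits). Of the 9 G-box members, 8 lay above 0 in the drought average, with a median of 0.41, and 4 were called: bZIP95, bZIP45, bZIP21 and bZIP42. The calls of bZIP42 (GBF3, 1.10) and of bZIP transcription factor1 (Zm00001d043992, 1.19) were lost without Y7-1 control-exogenous ABA replicate 3, at 0.81 and 0.87, in which these genes had 0.362 and 0.734 FPKM. Without the library labelled as Y7-1 moderate drought replicate 3 the average for bZIP21 was 0.89, and it was 0.96 without Y7-1 control replicate 2, Y7-1 moderate drought-exogenous ABA replicate 1 or Y478 control-exogenous ABA replicate 2, each below the minimum fold.

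No member was called with the ABA spray in either line. limma called 0 of 94 in Y478 with the spray under control (0.00417% of all genes), 0 in Y478 with the spray under moderate drought (0.00417%), 0 in Y7-1 with the spray under control (0.0292%), 0 in Y7-1 with the spray under moderate drought (0.158%) and 0 in the average (0.00834%). At an unadjusted p under 0.05 with the minimum fold the counts were 4 (1.8% of all genes), 3 (2.13%), 5 (4.22%), 11 (5.51%) and 0 (0.363%), and limma-voom called 0 in each. The lowest adjusted p in the average was that of bZIP71 (0.0846, log2 fold change 0.80). Without the library labelled as Y7-1 moderate drought replicate 3 the count was 0 in each of the 5. In Y7-1 under moderate drought the count was 4 without Y7-1 moderate drought replicate 1 and 2 without Y7-1 control-exogenous ABA replicate 3. With 3 plants against 3, the median standard error of a member's log2 fold change was 0.33, so smaller changes than the minimum fold may have gone uncalled.

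Some genes of families around the bZIP factors in ABA signalling, matched by name or description, were called with drought, where 5.46% of all genes were called in the average. The match took every gene of a family, so not each of them need act in ABA signalling. Of 87 PP2C genes tested, 8.05% were called in the average, of which 7 rose and 0 fell in the drought average, and by pair of groups 5 rose and 1 fell in Y478 without ABA, 7 and 1 in Y478 with ABA, 1 and 0 in Y7-1 without ABA and 9 and 0 in Y7-1 with ABA. Of all genes tested, 4.11%, 6.14%, 0.617% and 7.07% were called in these pairs, in the same order. Of 12 SnRK2 genes 1 rose and 0 fell in the average (8.33%), and of 18 ABA receptor genes 1 rose and 2 fell (16.7%). Of 16 genes of 14-3-3 proteins 0 were called in the average. Of the 4 ABI5-like genes, bZIP genes themselves, 1 rose and 0 fell, counts too small to set against the share of all genes. None of these genes was called in a comparison of the ABA spray.

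Between the lines, more bZIP genes were lower than higher in Y7-1. In the average over the 4 treatments, 5 members were higher and 10 lower in Y7-1, 16.0% of the members against 14.7% of all genes tested (6.33% higher, 8.38% lower). The median log2 fold change of the members was -0.35, with 62 of 94 below 0, against 0.00 over all genes, and at the adjusted p alone 14 were higher and 40 lower, against 24.6% higher and 24.3% lower of all genes. Under moderate drought-exogenous ABA 4 members were higher and 19 lower, 24.5% against 18% of all genes (7.87% higher, 10.1% lower). Under moderate drought 0 were higher and 1 lower, 1.1% against 0.972% (0.3% higher, 0.671% lower). Under control-exogenous ABA 4 were higher and 17 lower, 22.3% against 14.9% (6.33% higher, 8.53% lower), and under control 5 were higher and 4 lower, 9.6% against 9.12% (4.23% higher, 4.89% lower). With the fit limited to the pair compared the count was 8 in place of 21 under control-exogenous ABA and 0 in place of 1 under moderate drought. The control-exogenous ABA count was 14 without Y7-1 control-exogenous ABA replicate 3, and the control count was 5 without Y7-1 control replicate 3. No member was called higher in 1 treatment and lower in another. Without the library labelled as Y7-1 moderate drought replicate 3 the calls under moderate drought were 4 higher and 10 lower (3.9% and 5.56% of all genes), and those in the average 5 and 14 (7.17% and 9.33%), with 14 members in common with the fit of all libraries. The single call under moderate drought was bZIP17, with 19.6, 28.5 and 32.6 FPKM in Y7-1, against 431, 165 and 43.0 FPKM in Y478 (log2 fold change -2.44 ± 0.58, limma adjusted p = 0.0471), groups that did not overlap. That call held in 5 of 24 fits, with an adjusted p of 0.209 without Y7-1 moderate drought replicate 1 and 0.0144 without the library labelled as replicate 3. In 12 of the 15 members called in the average, that library lay nearer to the Y478 than to the Y7-1 moderate drought mean.

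**Figure D3:**
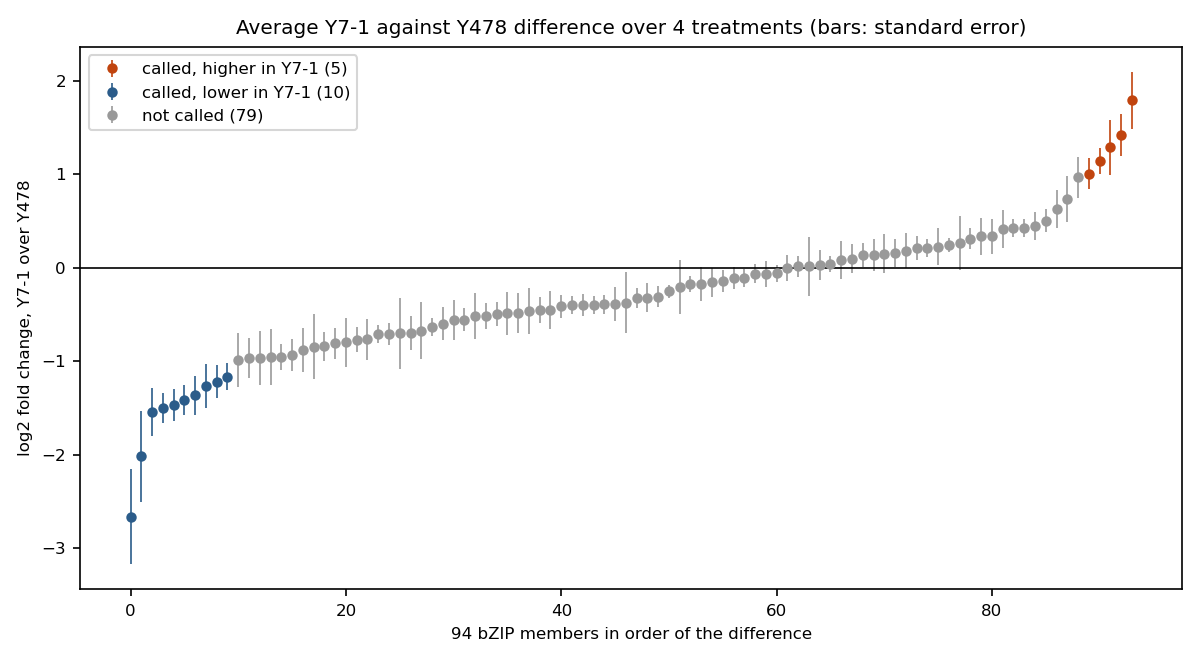
Average log2 fold change of Y7-1 over Y478 (bars, SE) of the 94 members in order of size, on the log2(FPKM + 0.5) scale. The 5 members called higher and 10 called lower in Y7-1 are coloured and 79 are not called; 62 of the 94 lie below 0.

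bZIP35 (Zm00001d046664, chromosome 9) was lower in every Y7-1 library than in any Y478 library. It had 18.8, 19.7 and 12.5 FPKM in Y7-1 moderate drought-exogenous ABA, against 53.6, 54.9 and 60.5 FPKM in Y478. Under moderate drought it had 22.3, 8.28 and 17 FPKM in Y7-1, against 42.5, 28.6 and 26.2 FPKM in Y478. Under control it had 9.15, 9.67 and 9.29 FPKM in Y7-1, against 32.8, 25.6 and 26.3 FPKM in Y478. All 12 Y7-1 libraries (8.28 to 24.5 FPKM, the library labelled replicate 3 included) were below all 12 of Y478 (25.6 to 60.5 FPKM). The average log2 fold change was -1.42 ± 0.16 (limma adjusted p = 1.52e-06), and the gene was called in 3 of the 4 treatments, each in 24 of 24 fits. Of these, the call under control-exogenous ABA (-1.33, adjusted p = 0.00625) was lost with the fit limited to the pair compared (limma adjusted p = 0.0795). The calls under moderate drought-exogenous ABA and control were kept. Values of bZIP104 (a bZIP9 type) and of opaque2 heterodimerizing protein1 (the maize partner of opaque2, at most 1.03 FPKM) did not overlap between all libraries of the lines either. The latter stayed at 0.174 FPKM or less in Y7-1 and is a member through Y478 alone. The share of all genes without overlap over 12 against 12 libraries was not counted, so these genes are only listed. With 11 Y7-1 libraries, without the one labelled replicate 3, 11 members did not overlap, 11.7% of the members against 5.52% of all genes tested.

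bZIP71 (Zm00001d053967, chromosome 4) was lower in Y7-1 and also fell under drought with ABA in both lines. It had 4.36, 4.44 and 6.25 FPKM in Y7-1 moderate drought-exogenous ABA, against 19.4, 16.3 and 15.6 FPKM in Y478. Under control-exogenous ABA it had 9.48, 11.8 and 18.1 FPKM in Y7-1, against 56.7, 34.7 and 32.3 FPKM in Y478. The lines did not overlap within either treatment, and in each line the droughted values lay below the controls. The average line difference was -1.5 ± 0.16 on the log2 scale (limma adjusted p = 9.68e-07, 24 of 24 fits). The drought change with ABA was -1.21 ± 0.32 in Y478 (adjusted p = 0.023) and -1.27 ± 0.32 in Y7-1 (adjusted p = 0.016), each held in 21 of 24 fits. In Y478 the drought call was lost without control-exogenous ABA replicate 1 (adjusted p = 0.135) and without moderate drought-exogenous ABA replicates 2 (0.056) and 3 (0.0981). In Y7-1 it was lost without control-exogenous ABA replicate 3 (0.0599) and without moderate drought-exogenous ABA replicates 1 (0.0644) and 2 (0.0673).

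The TGA type, whose Arabidopsis members bind TGACG sites and work with NPR1, was lower in Y7-1 for 2 of its 6 members in the average, with 0 higher and a median of -0.63. bZIP54 (Zm00001d022542, chromosome 7, described as TGA6) had 6.91, 10.0 and 8.74 FPKM in Y7-1 moderate drought-exogenous ABA, against 25.4, 21.0 and 32.1 FPKM in Y478. Under control it had 6.27, 8.85 and 6.25 FPKM in Y7-1, against 17.3, 13.8 and 17.8 FPKM in Y478. The lines did not overlap in these treatments, while under moderate drought the library labelled as Y7-1 replicate 3, with 17.5 FPKM, lay above 2 of the Y478 values (29.9, 16.5 and 15.6 FPKM). The average log2 fold change was -1.17 ± 0.14 (limma adjusted p = 4.47e-06, 24 of 24 fits). The other, bZIP107 (Zm00001d024160, TGA4), had 0.580, 0.395 and 0.243 FPKM in Y7-1 moderate drought-exogenous ABA, against 3.39, 3.85 and 4.69 FPKM in Y478 (-2.31 ± 0.47, adjusted p = 0.00198). Its value in the library labelled as Y7-1 moderate drought replicate 3 was 4.92 FPKM, the highest of all 24. bZIP113 (Zm00001d026398, TGA4) had 7.15, 5.94 and 8.98 FPKM in Y7-1 moderate drought-exogenous ABA, against 29.4, 35.8 and 23.1 FPKM in Y478, groups that did not overlap (-1.93 ± 0.35, adjusted p = 0.0011, 24 of 24 fits). bZIP27, of the same type, went the other way under control, with 3.33, 5.25 and 6.82 FPKM in Y7-1, against 1.30, 0.913 and 1.87 FPKM in Y478. Its log2 fold change was 1.58 ± 0.41 (adjusted p = 0.0162), and the call was lost without Y7-1 control replicate 3 (adjusted p = 0.0748), Y478 control replicate 1 (0.0549) or Y478 control replicate 2 (0.0749).

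The 3 HY5 members were each lower in Y7-1 in at least 1 treatment with ABA. HY5 is a promoter of light-dependent development that is degraded in the dark in Arabidopsis. bZIP6 (Zm00001d039658) had 14.1, 21.4 and 9.26 FPKM in Y7-1 control-exogenous ABA, against 39.4, 42.2 and 62.9 FPKM in Y478. The groups did not overlap, at a log2 fold change of -1.71 ± 0.31 (limma adjusted p = 0.00106, 24 of 24 fits). bZIP61 had 146, 228 and 8.89 FPKM in Y7-1 control-exogenous ABA, against 303, 358 and 333 FPKM in Y478 (-2.28 ± 0.76, adjusted p = 0.0386). That call rests on 1 library, since without Y7-1 replicate 3 the log2 fold change was -0.85 (adjusted p = 0.189), and it was also lost without each of the 3 Y478 replicates (adjusted p = 0.0799, 0.0831 and 0.0883).

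The third HY5 member, bZIP88 (Zm00001d025589, chromosome 10, 123303091 to 123307977), was close to on or off in Y7-1. It had 4.31 to 10.6 FPKM in all 12 Y478 libraries. In Y7-1 it had 0.0365, 0 and 0 FPKM under moderate drought-exogenous ABA, 0, 9.18 and 9.63 FPKM under moderate drought, 0, 0 and 3.42 FPKM under control-exogenous ABA and 0, 7.05 and 0 FPKM under control. Thus 8 Y7-1 plants were below 0.5 FPKM, 7 of them at 0, and 4 were at 3.42 to 9.63 FPKM, which reaches the Y478 range. The highest of these 4 was the library labelled as Y7-1 moderate drought replicate 3, and without it 8 Y7-1 plants were below 0.5 FPKM and 3 were at 3.42 to 9.18 FPKM. The average log2 fold change was -2.66 ± 0.51 (limma adjusted p = 0.00033) and that under moderate drought-exogenous ABA -3.90 ± 1.02 (adjusted p = 0.00907), both in 24 of 24 fits. The average was -2.85 (adjusted p = 0.000161) without that library.

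bZIP76 (Zm00001d036736, chromosome 6) was lower in Y7-1 under control, with 2.57, 3.03 and 3.58 FPKM in Y7-1, against 13.8, 13.3 and 9.88 FPKM in Y478. Under control-exogenous ABA it had 2.52, 2.02 and 0.772 FPKM in Y7-1, against 19.3, 12.6 and 15.5 FPKM in Y478. Under moderate drought-exogenous ABA the lines were nearer, with 4.83, 3.80 and 5.76 FPKM in Y7-1, against 10.5, 9.43 and 6.47 FPKM in Y478. In none of the 3 treatments did the lines overlap. The log2 fold changes were -1.85 ± 0.34 (limma adjusted p = 0.00193) under control and -2.92 ± 0.34 (adjusted p = 4.5e-05) under control-exogenous ABA, both in 24 of 24 fits, and it was not called under moderate drought-exogenous ABA.

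bZIP21 was lower in Y7-1 under control-exogenous ABA, with 14.4, 12.6 and 9.76 FPKM in Y7-1, against 86.2, 62.2 and 189 FPKM in Y478 (log2 fold change -3.0 ± 0.52, limma adjusted p = 0.00068, 24 of 24 fits). Under moderate drought-exogenous ABA it had 126, 85.0 and 40.2 FPKM in Y7-1, against 140, 157 and 150 FPKM in Y478, and was not called. The lines did not overlap in either treatment, and the controls were further apart. In Y478 the drought values with ABA overlapped with those of the controls.

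Under moderate drought-exogenous ABA, where 19 members were lower in Y7-1, they came from several types. bZIP17 had 21.6, 27.1 and 22.8 FPKM in Y7-1, against 204, 86.4 and 349 FPKM in Y478 (log2 fold change -2.92 ± 0.58, limma adjusted p = 0.00173, 24 of 24 fits). It was 1 of 4 of the 5 bZIP9 or bZIP25 members that were lower, with bZIP41, bZIP104 and Zm00001d034455. Zm00001d034455 is a member through Y478, so its being lower follows in part from the rule. bZIP41 lies 151932 bases from it, and both are uncertain as separate measurements. Over all genes tested 10.1% were lower, a share that types of so few members cannot be set against. Of the small bZIP11, bZIP53 or bZIP58 type 3 of 6 were lower. Of these, bZIP40 (Zm00001d005578, bZIP11 type) had 6.83, 5.12 and 10.8 FPKM in Y7-1, against 22.8, 17 and 31.2 FPKM in Y478 (-1.60 ± 0.37, adjusted p = 0.00444, 24 of 24 fits). EM binding protein1 homologue (Zm00001d019166), named after the wheat factor that binds the ABA-responsive element of the Em gene, had 2.69, 2.74 and 3.71 FPKM in Y7-1, against 7.20, 7.82 and 6.31 FPKM in Y478. Its groups did not overlap and were narrow, at a log2 fold change of -1.11 ± 0.18 (adjusted p = 0.000654, 24 of 24 fits). bZIP95 was lower in Y7-1 too (-1.24 ± 0.36, adjusted p = 0.0169), but its call was lost without Y7-1 replicate 2 (adjusted p = 0.067), Y478 replicate 1 (0.0711) or Y478 replicate 3 (0.0846). Both endoplasmic reticulum stress types were measured, and of these bZIP91 (Zm00001d007042, bZIP17 type) had 7.11, 8.61 and 16.5 FPKM in Y7-1, against 28.5, 19 and 21.7 FPKM in Y478 (-1.14 ± 0.34, adjusted p = 0.0175). Its groups did not overlap, but the call was lost without Y7-1 replicate 1 (adjusted p = 0.0864), Y7-1 replicate 2 (0.0661) or Y478 replicate 1 (0.0764). bZIP73 (Zm00001d038574), described as the type of Arabidopsis bZIP24, a factor of the salt response, had 1.36, 1.69 and 2.24 FPKM in Y7-1, against 4.34, 4.77 and 4.68 FPKM in Y478 (-1.19 ± 0.27, adjusted p = 0.00382, 24 of 24 fits). None of the 5 members of the bZIP16 type, with mean levels of 0.481 to 6.39 FPKM, was called in any pairwise comparison or average. None of the 5 ABF type members was called between the lines in any treatment, with 5 of 5 below 0 and a median of -0.32 in the average.

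**Figure D4:**
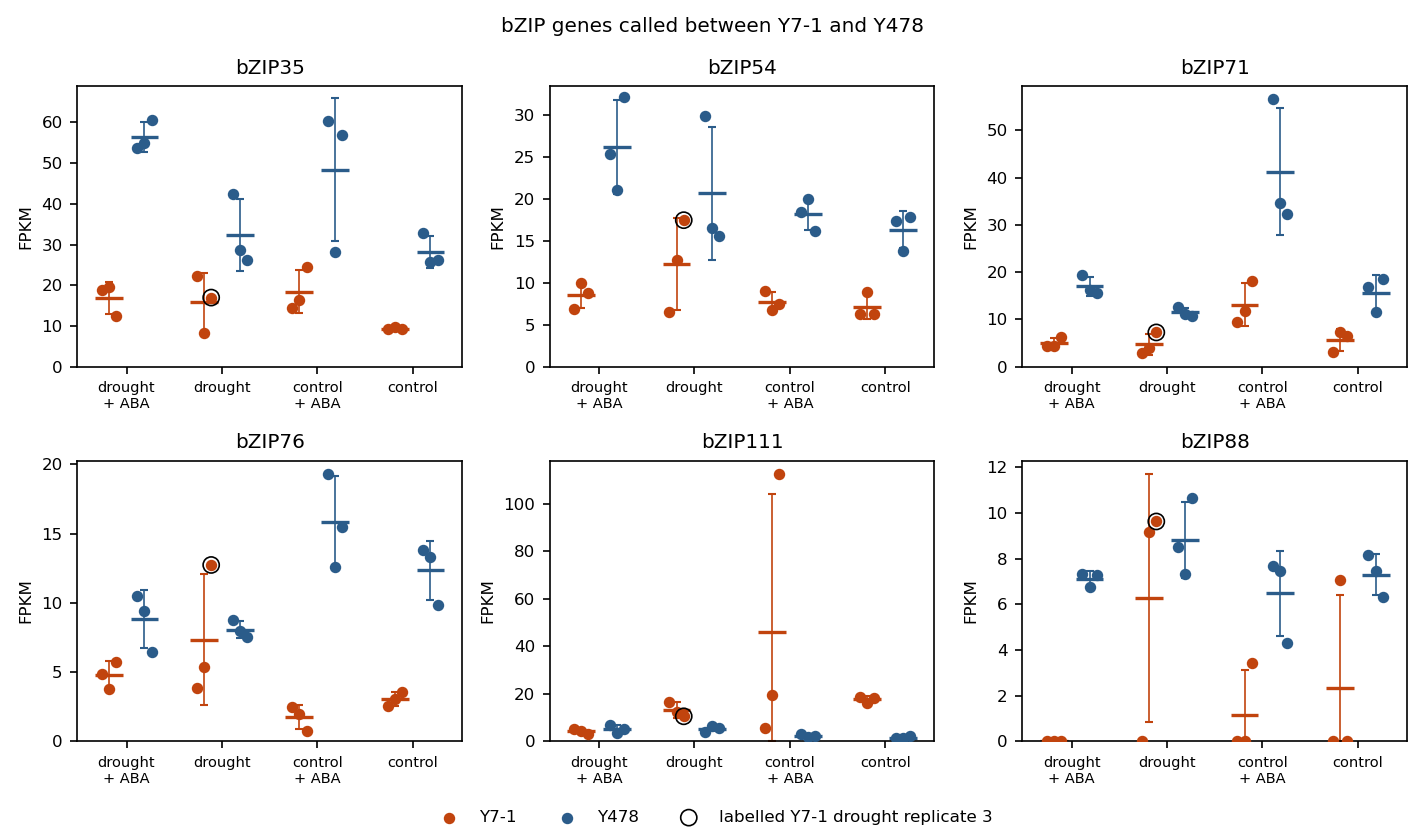
FPKM of 6 members in each library (points), with the mean (line) and SD (bars, stopped at 0; n = 3) of each group, Y7-1 in orange-red and Y478 in blue, by treatment. bZIP35 lies at 8.28 to 24.5 FPKM in Y7-1 and at 25.6 to 60.5 FPKM in Y478, and bZIP88 is at 0 in 7 of the 12 Y7-1 libraries; the circled point is the library labelled as Y7-1 moderate drought replicate 3.

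Fewer members were higher in Y7-1, and several of them were low in Y478. bZIP111 (Zm00001d030995, chromosome 1, 172452608 to 172457478, described as a bZIP25 type) had 18.8, 16.1 and 18.4 FPKM in Y7-1 control, against 1.44, 1.29 and 2.20 FPKM in Y478 control. Under control-exogenous ABA it had 5.74, 19.4 and 112 FPKM in Y7-1, against 2.94, 1.67 and 2.27 FPKM in Y478. Under moderate drought-exogenous ABA it had 5.05, 4.46 and 3.06 FPKM in Y7-1, against 6.74, 3.73 and 5.23 FPKM in Y478. The lines were apart in both controls and overlapped under drought with ABA, while under moderate drought Y7-1, with 16.8, 12.2 and 10.6 FPKM, lay above Y478, with 4.16, 6.39 and 5.75 FPKM, and was not called. The log2 fold changes were 3.11 ± 0.61 under control (limma adjusted p = 0.00288) and 3.13 ± 0.61 under control-exogenous ABA (adjusted p = 0.00161), both in 24 of 24 fits. With the fit limited to the pair compared, the limma adjusted p was 0.000538 under control. Under control-exogenous ABA, where Y7-1 replicate 3 lay far above the other replicates, it was 0.117 and the call was lost. Within Y7-1 the drought change with ABA was -2.39 ± 0.61 (adjusted p = 0.0165), lost without Y7-1 moderate drought-exogenous ABA replicate 2 (adjusted p = 0.052) or 3 (0.0513). It was also lost with the fit limited to the pair compared (limma adjusted p = 0.265).

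bZIP125 (Zm00001d037170) had 5.17, 4.49 and 5.79 FPKM in Y7-1 moderate drought-exogenous ABA, against 1.14, 0.554 and 1.69 FPKM in Y478. The groups did not overlap, at a log2 fold change of 1.85 ± 0.45 (limma adjusted p = 0.00587, 24 of 24 fits), and no Y478 library exceeded 1.69 FPKM. bZIP79 (Zm00001d052543) had 0.489 to 1.24 FPKM in the 11 Y7-1 libraries other than the one labelled moderate drought replicate 3 (0.204 FPKM), and 0 to 0.207 FPKM in Y478 (average 1.14 ± 0.14, adjusted p = 3.18e-06). bZIP59 (Zm00001d037360) had 0 reads in all 12 Y478 libraries and 76 reads over the Y7-1 libraries. In Y7-1 control it averaged 0.986 ± 0.507 FPKM (SD, n = 3), at least 9.90-fold higher than the 0.0996 FPKM that 3 reads over the Y478 control group would give. bZIP32 (Zm00001d024285) had 51 reads in Y7-1 moderate drought-exogenous ABA and 0 in Y478, at least 14.9-fold higher by the same floor. Its call there was lost without Y7-1 replicate 1 (limma adjusted p = 0.105) or Y478 replicate 1 (0.0672), 2 (0.057) or 3 (0.0684). bZIP79, bZIP59 and bZIP32 stayed below 0.5 FPKM in every Y478 library (highest 0.207, 0 and 0.441 FPKM). They are thus members through Y7-1 alone, so being higher there follows in part from the rule, and their values are a description.

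**Figure D5:**
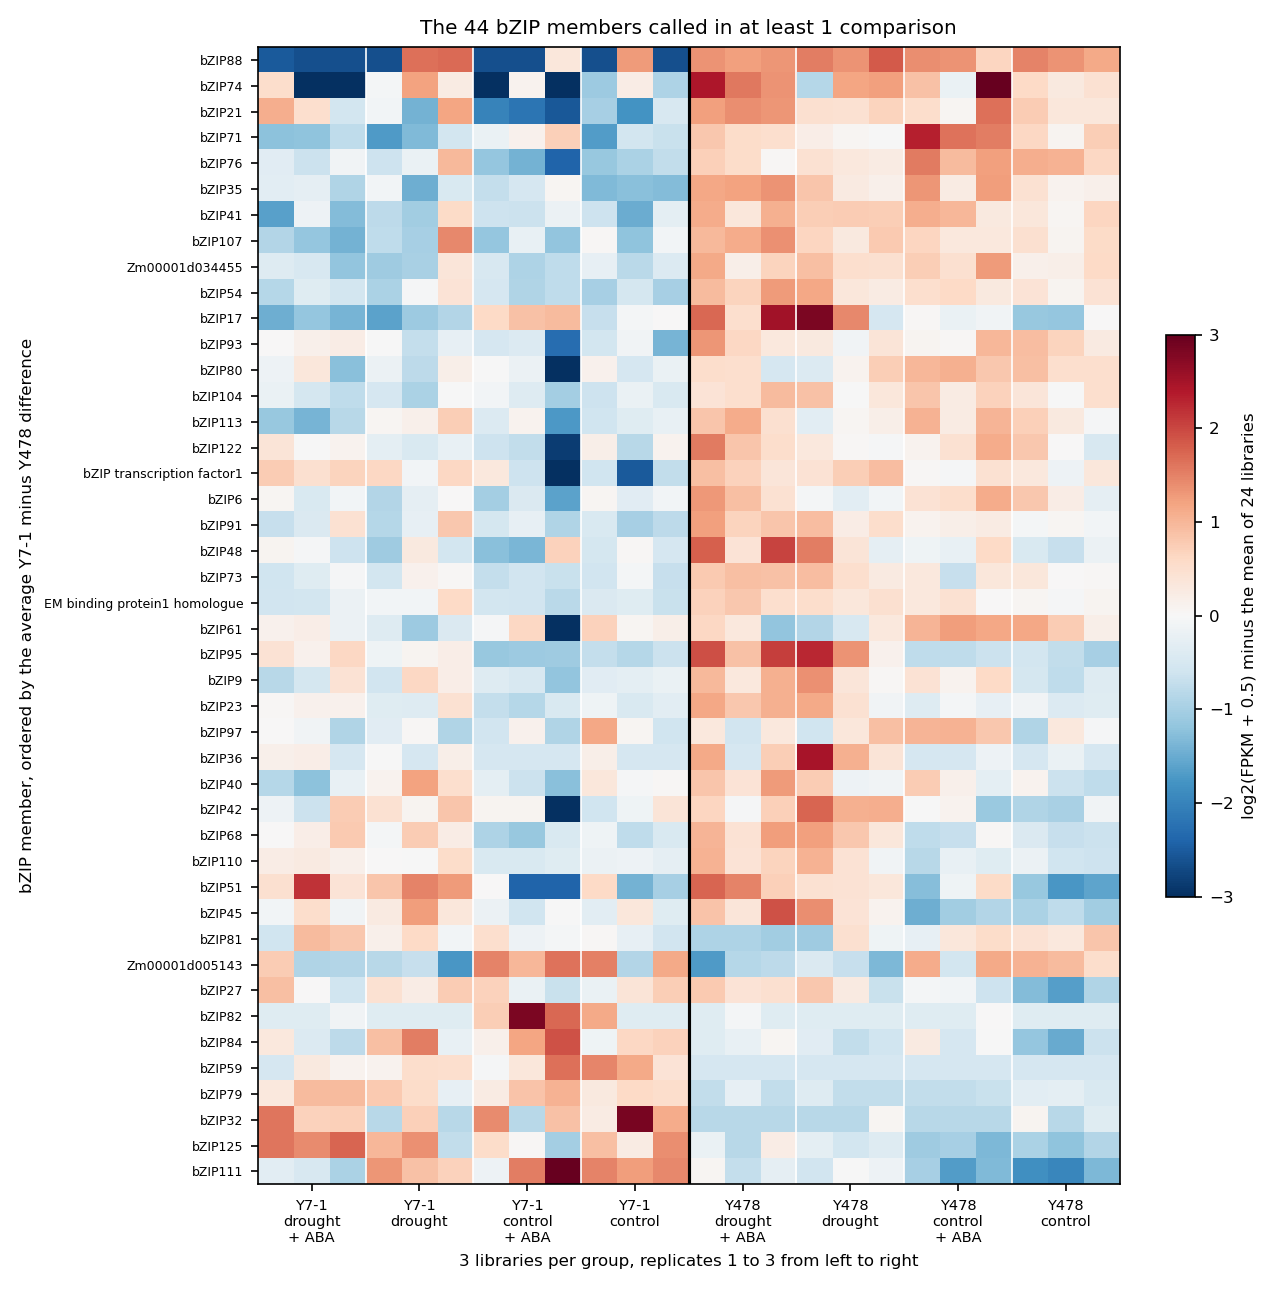
The 44 members called in at least 1 comparison, averages included (rows, ordered by the average line difference) in the 24 libraries (columns), as log2(FPKM + 0.5) minus the mean over the 24. Members lower in Y7-1 outnumber those higher, and the column of the library labelled as Y7-1 moderate drought replicate 3 looks like the Y478 columns in many rows, being nearer to the Y478 moderate drought mean in 55 of the 94 members.

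With all 24 libraries, no member passed the test of a difference between the lines in the response to treatment. limma called 0 of 94 for line by drought without ABA (0.00834% of all genes), 0 for line by drought with ABA (0.0292%) and 0 for line by ABA (0.0209%), while 9 (5.5% of all genes), 11 (6.79%) and 9 (3.29%) passed an unadjusted p under 0.05 with the minimum fold and limma-voom called 0 in each. Without the library labelled as Y7-1 moderate drought replicate 3 the counts were 0, 1 and 0, the 1 being bZIP76 for line by drought with ABA (log2 difference 2.11, adjusted p = 0.0337, against 0.110 with all libraries). That library is not in the groups of this comparison, so the log2 difference was the same with it. The fits differed in the shared estimate of spread. The lowest adjusted p for line by ABA was 0.147, for bZIP40 (log2 difference -1.75). The larger counts between the lines under ABA are thus counts of calls per treatment, and with all libraries no difference between treatments was shown.

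Some of the members that differed between the lines lie near each other. bZIP41 (Zm00001d034447) and Zm00001d034455, both bZIP9 or bZIP25 types on chromosome 1 and 151932 bases apart, were lower in Y7-1, with average log2 fold changes of -1.36 and -1.22 (limma adjusted p = 4.15e-05 and 2.14e-05). In Y7-1, Zm00001d034455 reached 0.5 FPKM only in the library labelled moderate drought replicate 3, so it is a member through Y478. bZIP41 had 0.274, 1.65 and 0.463 FPKM in Y7-1 moderate drought-exogenous ABA, against 4.69, 2.53 and 4.48 FPKM in Y478, without overlap. Their values over the 24 libraries had a Pearson correlation of 0.85, points that share line and treatment, and how reads of similar genes were counted is not given in the sources used here, so their values are uncertain as separate measurements. bZIP71 lies 273120 bases from bZIP84 on chromosome 4, where the average line differences were -1.5 for bZIP71 and 0.96 for bZIP84.

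Genes of the leaf's cell types differed between the lines in part. Of 16 bundle sheath genes tested (22 matched, small subunits of Rubisco and malic enzymes among them), the mean of log2(FPKM + 0.5) was 5.86 ± 0.10 in Y7-1 moderate drought-exogenous ABA, against 6.68 ± 0.083 in Y478 (SD over 3 libraries, as for the lists that follow), and 5.95 ± 0.17 in Y7-1 control, against 6.67 ± 0.11 in Y478 control. Summed FPKM of this list was 5374 to 6484 in the first of these groups and 12020 to 15230 in the second, with 1 of the 16 genes at 0 in the first group. The bundle sheath mean was 5.90 ± 0.29 in Y7-1 against 6.36 ± 0.060 in Y478 for moderate drought alone. Under control-exogenous ABA it was 6.26 ± 0.093 against 6.78 ± 0.38, and the libraries of the lines overlapped. Of 26 mesophyll genes of C4 photosynthesis (33 matched), no gene was at 0 in any group, and the mean was lower in Y7-1 in all 4 treatments, with 4.77 ± 0.023 in Y7-1 against 4.99 ± 0.24 in Y478 for moderate drought-exogenous ABA, 4.70 ± 0.064 against 4.93 ± 0.084 for moderate drought alone, 5.10 ± 0.12 against 5.27 ± 0.059 under control-exogenous ABA and 4.94 ± 0.060 against 5.22 ± 0.020 under control. Of 25 genes of epidermis and wax (41 matched), the mean was 3.00 ± 0.15 in Y7-1 control, against 2.4 ± 0.18 in Y478 control, 2.66 ± 0.29 against 2.37 ± 0.21 under control-exogenous ABA, 2.75 ± 0.43 against 2.33 ± 0.26 for moderate drought-exogenous ABA and 2.14 ± 0.37 against 2.15 ± 0.12 for moderate drought alone. Of 5 phloem genes (7 matched), it was 3.63 ± 0.14 in Y7-1 moderate drought-exogenous ABA, against 4.14 ± 0.18 in Y478, and 4.02 ± 0.45 in Y7-1 control, against 3.50 ± 0.20 in Y478 control. The phloem mean was 3.63 ± 0.67 in Y7-1 against 3.96 ± 0.18 in Y478 for moderate drought alone. Under control-exogenous ABA it was 3.90 ± 0.42 against 3.91 ± 0.49. Of 19 genes described by senescence (33 matched), group means were 3.24 to 3.69 in Y7-1 and 3.34 to 3.78 in Y478. Of 27 genes of dividing cells (36 matched), the mean was 2.69 ± 0.16 in Y7-1 moderate drought-exogenous ABA, against 3.11 ± 0.21 in Y478, and 2.25 ± 0.15 in Y7-1 control, against 2.26 ± 0.21 in Y478 control. For moderate drought alone the mean of this list was 2.57 ± 0.21 in Y7-1 against 2.67 ± 0.29 in Y478. Under control-exogenous ABA it was 2.01 ± 0.28 against 2.52 ± 0.76. Bundle sheath and mesophyll genes were thus at a lower mean of log2 values in Y7-1, and those of epidermis and wax at a higher mean under control. Summed FPKM of the mesophyll list did not follow under drought. It was 6692 to 9243 in Y7-1 moderate drought-exogenous ABA, against 3995 to 8227 in Y478, where the log2 means of the libraries overlapped too. For moderate drought alone it was 4680 to 7008 in Y7-1 against 3625 to 7212 in Y478. Under control it was lower in Y7-1, with 8290 to 9976 against 10450 to 11110, and under control-exogenous ABA it overlapped. The part of these lists in the line differences was not tested.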

How the data were processed

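RNA of 24 maize leaves was sequenced on the Illumina NovaSeq platform from NEBNext Ultra libraries and analysed by the authors on the Novomagic platform. The authors deposited FPKM values with positions, lengths and names for 46430 genes, and their processing notes name HISAT2 2.0.5. The notes also name a mouse genome build and the labels a kit and a tissue that do not match maize leaves, and the read counter, annotation and use of strand are not given in the sources used here. Reads per gene were recovered from the deposited FPKM, since in every library each value multiplied by its length was a whole number of equal steps, to a tolerance of 0.05, for 100% of genes.

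Genes at 0.5 FPKM or more in at least 3 libraries (23978) were tested as log2(FPKM + 0.5) in R 4.3.3 with limma 3.58.1 (8 group means, trended eBayes, two-sided, Benjamini-Hochberg), and fold changes are on that scale, which understates changes of low genes. Tables (pandas 2.3.3, numpy 2.4.6) and figures (matplotlib 3.10.9) were made under Python 3.11.15. The fit was run on simulated reads with the same dispersion in all groups, so the unequal spread between groups seen here was not covered. No library was a copy of another. Alternatives were a pseudocount of 1, no filter, median ratio scaling, limma-voom on the recovered reads, the replicate number as a block, the compared groups alone, and each library left out in turn.

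The members, gene lists and tests were chosen with earlier results of these data known, and types with an Arabidopsis bZIP number were set after the file was read. Named were up to 6 members called in each direction per comparison by size, the 6 of highest level, members in tables of the study, and members of a classical name or a described type, called ones first; others were singled out after their values were seen. Fold bounds use a floor of 3 reads over the group. Sequences were not used here.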

Additional observations from a re-analysis of the deposited data

How the results depend on the processing

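No named gene's value changed direction under any alternative. Of the counts of called members, those that moved by over 1.5 times were, with the compared groups alone in the fit, 1 in place of 6 for drought with ABA in Y478, 2 in place of 12 for drought with ABA in Y7-1, 8 in place of 21 for the lines under control-exogenous ABA and 0 in place of 1 for the lines under moderate drought, where fewer libraries set the spread. With limma-voom the counts were 13 in place of 8 for the drought average, 23 in place of 15 for the line average and 2 in place of 1 for the lines under moderate drought, where no filter and the replicate block gave 0; the cause was not tested. Leaving out 1 library gave 1 to 11 calls for drought in Y478 (6 in all libraries), 4 to 9 with ABA (6), 0 to 3 in Y7-1 (0), 5 to 16 with ABA (12) and 6 to 8 in the average (8). For ABA it gave 0 to 0 in Y478 control, Y478 moderate drought and the average, 0 to 1 in Y7-1 control and 0 to 4 in Y7-1 moderate drought. For the lines it gave 5 to 12 under control (9), 14 to 25 under control-exogenous ABA (21), 0 to 14 under moderate drought (1), 16 to 27 under moderate drought-exogenous ABA (23) and 14 to 20 in the average (15), and for the interactions 0 to 1, 0 to 2 and 0 to 1. The replicate numbers do not pair the plants: deviations of same-numbered libraries correlated between -0.24 and 0.32 (median 0.0), with 12 of 84 pairs over 0.1. Median ratio scaling moved the median of all genes by at most 0.00492 on the log2 scale. Of 101 calls of named genes, 97 held with the replicate block, 100 with median ratio scaling, 94 with no filter, 91 with limma-voom and 86 with a pseudocount of 1, and of 78 pairwise calls 41 held and 37 were lost with the compared groups alone.

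Values near 0.5 FPKM rest on few reads, and 3 plants per group limit each pairwise comparison.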

Other observations

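The on or off pattern of bZIP88 in Y7-1 was shared by other genes. Over the 12 Y7-1 libraries its values had a Pearson correlation of at least 0.9 with those of 56 other tested genes, of which 9 lay on its chromosome and 0 within 1 Mb, where 21 genes were tested. At 1 FPKM or more in the same 4 plants and below 0.5 FPKM in the other 8 were 16 genes, 3 of them on the same chromosome, and 14 genes, 2 on that chromosome, had the opposite pattern. One of the 4 plants is the library labelled as Y7-1 moderate drought replicate 3. Without it the counts were 160 genes with a correlation of at least 0.9 over 11 libraries (29 on the chromosome), 78 with the same pattern (8 on the chromosome) and 29 with the opposite pattern (3 on the chromosome), so they depend on that library. These genes were looked for after the values of bZIP88 were seen.

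Of the tested neighbours within 1 Mb of the 15 members called between the lines in the average, 21.8% (100 of 458) were called in that comparison, against 15.2% (364 of 2395) around the other 79 members and 14.7% of all genes tested. A gene near more than 1 member was counted for each. The windows of bZIP41 (16 of 43 called) and Zm00001d034455 (15 of 42) overlap, and each includes the other member. These shares are a description, since neighbouring genes are not independent.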
